A study of Mus musculus with 6 samples.

Results

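Kit is the receptor tyrosine kinase for stem cell factor, and it was followed here with its ligand Kitl and 8 proteins that carry or stop its signal. The 10 genes (Kit, Kitl, Grb2, Gab2, Sos1, Ptpn11, Sh2b3, Cbl, Ptpn6 and Inpp5d) were picked by symbol from a deposited table of 24672 genes, and all 10 were found in it. RNA sequencing libraries of cultured mouse cells labelled female germline stem cells (FGSC, 3 libraries) and differentiated female germline stem cells (Dif-FGSC, 3 libraries) were compared. Both groups were C57BL/6 cells at more than 20 passages, in medium with 10% fetal bovine serum and 10 ng/mL bFGF. FGSC grew on inactivated STO fibroblasts with LIF (10 ng/mL), EGF (20 ng/mL) and GDNF (10 ng/mL) added. Dif-FGSC were moved onto inactivated granulosa cells with BMP4 (10 ng/mL) and retinoic acid (0.1 µmol/L) added, so feeder, growth factors and retinoic acid changed together and cannot be told apart. Stem cell factor is not among the factors that the labels list for either medium. Whether replicate libraries derive from separate cultures is not said in the labels, and if they do not, the p-values reflect technical spread alone. The deposited columns are named con and dif. The first was read as FGSC and the second as Dif-FGSC, and every direction below rests on that reading.

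Binding of Kitl pairs Kit molecules at the cell surface, and the paired receptors phosphorylate tyrosines in each other's tails. Grb2 docks on these tyrosines and brings Sos1, which loads Ras, while Gab2 gathers the phosphatase Ptpn11 and PI3-kinase. Cbl, Ptpn6, Sh2b3 and Inpp5d work the other way and end the signal. In the gonad, Kit and Kitl are known for the survival of primordial germ cells, for differentiating spermatogonia and for oocyte growth, where granulosa cells make the ligand. Outside the germ line, Kit marks blood progenitors, mast cells and melanocytes.

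Expression was given as FPKM, the number of fragments divided by transcript length in kilobases and by mapped fragments in M (mega). The steps between low FPKM values implied about 17.4 to 27.0 M fragments per library. Of all genes, 12388 to 12830 were above 0, depending on the library. Markers of the labelled cell type were nearly absent. Of 10 germ cell markers, 9 stayed under 0.1 FPKM in every library and 7 (Dazl, Sohlh1, Sohlh2, Nobox, Figla, Gfra1 and Sycp3) were listed at 0 throughout. The summed level of the list was 0 to 0.0696 FPKM in libraries labelled FGSC and 0.0693 to 0.121 in those labelled Dif-FGSC. The Dif-FGSC sum was mostly Stra8, below the filter, at 0.121, 0.0693 and 0.0686 FPKM against 0.0249, 0 and 0 in FGSC. Feeder markers were low but summed higher than the germ cell list. The 8 fibroblast markers summed to 0.336 to 0.636 FPKM in FGSC and 0.164 to 0.235 in Dif-FGSC, and the 7 granulosa markers to 0.411 to 0.615 and 0.272 to 0.452 FPKM. In these lists, 7 of 8 and 6 of 7 genes stayed under 0.1 FPKM in every library. The exceptions were Thy1 (0.364 ± 0.0900 FPKM in FGSC and 0.113 ± 0.0352 in Dif-FGSC) and Amh (0.492 ± 0.109 and 0.374 ± 0.0920). The 12 mast cell and basophil markers summed to 325 to 364 FPKM in FGSC and 395 to 414 in Dif-FGSC. That sum was mostly Cpa3, a mast cell carboxypeptidase (288 ± 19.0 FPKM in FGSC and 301 ± 10.5 in Dif-FGSC, SD, n = 3), and Srgn, the granule proteoglycan (51.4 ± 2.84 and 74.1 ± 2.75). The mast cell genes Tpsb2 and Mrgprb2 were listed at 0 in every library. Fcer1a, a chain of the IgE receptor, did not exceed 0.0431 FPKM. Also below the filter, Cma1 was higher in Dif-FGSC without overlap (0.0288 ± 0.0267 to 1.24 ± 0.391 FPKM). Ms4a2, below the filter too, was lower without overlap (0.133 ± 0.0462 to 0.0596 ± 0.0152). Tpsab1, Mcpt4 and Hdc overlapped between the groups and did not exceed 0.309 FPKM. Of the 4 list members above the filter, Srgn, Il1rl1 and Mcpt8, a granule protease (0.597 ± 0.147 to 8.21 ± 0.925 FPKM), rose and Cpa3 was not called, except after quantile normalization (limma adjusted p = 0.00234). Of the 5 macrophage markers, Csf1r, Itgam and Mrc1 did not exceed 0.128 FPKM, and the list summed to 23.4 to 23.8 FPKM in FGSC and 10.6 to 10.7 in Dif-FGSC. Adgre1 carried the lower sum (20.3 ± 0.324 FPKM in FGSC and 4.28 ± 0.173 in Dif-FGSC), while Cd68 rose from 3.19 ± 0.271 to 6.19 ± 0.118 (limma adjusted p = 1.67e-05), and Itgam and Csf1r, below the filter, were also higher without overlap. The 5 erythroid markers summed to 0.144 to 0.421 FPKM and the 4 melanocyte markers to 0 to 0.319 over all libraries. The part of these cell types in the values of Kit and its partners was not tested.

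The members were proposed with earlier results of these data known, among them the level of Kit and its difference between the groups. Their levels and differences are therefore a description, printed without p-values, and the calls below only sort the members. Log2 differences are Dif-FGSC minus FGSC in units of log2(FPKM + 1), where the added 1 shrinks the change of weakly expressed genes, with the standard error (SE) of a limma fit across 9162 genes with a mean of at least 1 FPKM. Of the 10 members, 9 passed that filter and Kitl did not. In the fit, 7 members were called higher in Dif-FGSC, 1 was called lower and 1 was not called at an adjusted p of 0.05. Over all 9162 genes the same rule called 65.1%, with 36.5% higher and 28.6% lower, and nothing is read from the members' count. The groups did not overlap for 8 of these 9 members, 7 with Dif-FGSC higher and 1 with Dif-FGSC lower, against 70.7% of all genes tested (39.6% higher and 31.0% lower).

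Kit stood highest among the members. It was listed at 85.3, 86.7 and 94.9 FPKM in FGSC and at 115, 114 and 114 in Dif-FGSC. All 3 Dif-FGSC libraries were above all 3 FGSC libraries, and FGSC replicate 3 was the closest of its group to them. The means were 89.0 ± 5.20 and 114 ± 0.931 FPKM, a ratio of 1.29 and a log2 difference of 0.36 ± 0.042 (SE). Kit exceeded 91.6% to 94.3% of the 9162 tested genes, depending on the library. In bulk libraries, a change in the share of cells that express Kit and a change in the RNA per cell cannot be told apart.

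**Figure D1:**
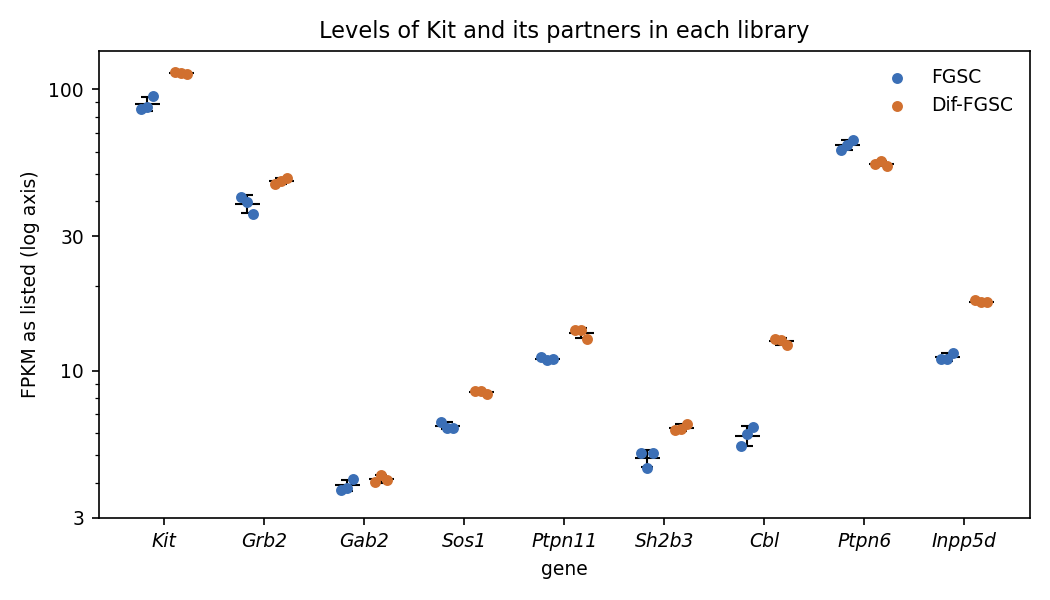
FPKM as listed (log axis) of the 9 members above the filter, 1 point per library, with the mean and SD of 3 libraries in black. Kit is the highest gene in both groups, and Dif-FGSC points lie above FGSC points for every gene shown except Gab2, where they overlap, and Ptpn6, where they lie below.

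Kitl, the ligand, was listed at 0 in all 6 libraries. For its longest reference transcript, 5648 bp, 3 fragments would give 0.0197 to 0.0306 FPKM, depending on the library. Kitl has 2 RefSeq transcripts, and if listed values are means over transcripts, as considered below, the listed value would be lower. A 0 in a table without counts can be a failed estimate, so Kitl is described only as listed at 0. The promoters of the receptor and the ligand are shown because these genes were the extremes of the set, one with the highest listed level and the other at 0. Each is the 250 bases before the start of the gene (RefSeq, GRCm38.p6, plus strand, 5′ to 3′), at chr5:75574737-75574986 for Kit and chr10:100015571-100015820 for Kitl, with the GC box GGGCGG on either strand in capitals.
Kit: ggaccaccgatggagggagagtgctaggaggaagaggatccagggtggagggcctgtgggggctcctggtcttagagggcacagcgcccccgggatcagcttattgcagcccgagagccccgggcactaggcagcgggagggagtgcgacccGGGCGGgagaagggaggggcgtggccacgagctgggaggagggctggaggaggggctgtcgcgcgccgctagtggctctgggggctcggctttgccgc
Kitl: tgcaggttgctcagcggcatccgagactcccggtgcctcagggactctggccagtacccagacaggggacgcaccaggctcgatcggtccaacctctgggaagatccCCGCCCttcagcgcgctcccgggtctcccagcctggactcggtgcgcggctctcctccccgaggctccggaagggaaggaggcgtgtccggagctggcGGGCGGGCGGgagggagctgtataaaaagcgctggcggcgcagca
Kit had 1 such match, 98 bases before the start, and Kitl had 3, of which 2 overlap. Of 32851 promoter windows of this length in the same table, 32.7% held at least 1 match. The letters GATAA, the core read by GATA factors, and the E-box CANNTG were searched on both strands and were in neither window, and they were in 22.6% and 66.2% of all windows. The STAT motif TTCNNNGAA was also in neither and in 7.02% of all. A match is a description of letters, and these windows hold no distal enhancer of Kit.

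The listed values of several members looked like means over transcripts, which bears on comparing levels between genes. Values of genes with 1 RefSeq transcript carried more than 6 significant digits in 14 of 4689 cases (0.299%), against 3494 of 4321 (80.9%) for genes with 2 or more. Among 1017 genes with 3 transcripts, 81.9% had values that became a shorter decimal when multiplied by 3. Grb2, with 3 transcripts, showed this in 5 of 6 libraries, and Kit, Ptpn11, Gab2, Inpp5d and Sh2b3 carried more than 6 digits. Values of Cbl, Sos1 and Ptpn6 had no more than 6. If the value of a gene is the mean over its transcripts, the sum would be larger by their number, and both orders are given.

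As listed in FGSC, the order of means was Kit (89.0 FPKM), Ptpn6 (63.4), Grb2 (39.1), Inpp5d (11.2), Ptpn11 (11.0), Sos1 (6.37), Cbl (5.88), Sh2b3 (4.89) and Gab2 (3.91). The ranges of Inpp5d and Ptpn11 overlapped, as did those of Sos1 and Cbl, and the other neighbours in this order did not. In Dif-FGSC, Cbl (12.7 FPKM) stood above Sos1 (8.39), no neighbours overlapped, and the rest of the order was the same. Multiplied by the number of RefSeq transcripts, Kit stayed first (178 FPKM in FGSC and 229 in Dif-FGSC), Grb2 stood at 117 and 142 and Inpp5d at 44.8 and 70.4. Ptpn11 stood at 22.05 and 27.23 FPKM, Sh2b3 at 19.6 and 25.1 and Gab2 at 7.82 and 8.26. Sos1 and Cbl, with 1 transcript, kept their values. Gab2 was then above both in FGSC, where Cbl was last. In Dif-FGSC Gab2 was last, with a range that overlapped that of Sos1. The place of Ptpn6 depends on its factor, since it has 2 RefSeq transcripts but values of no more than 6 digits. Left as listed (63.4 and 54.5 FPKM) it stood below Grb2 in both groups and below Inpp5d in Dif-FGSC. Multiplied by 2 (127 and 109 FPKM) it stayed above Inpp5d in both groups, its range overlapped that of Grb2 in FGSC, and it stood below Grb2 in Dif-FGSC. Ratios between groups within a gene do not depend on this factor.

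The adaptors and the exchange factor that pass the signal on were higher in Dif-FGSC or overlapped. Grb2, the adaptor that links phosphotyrosines to Sos1, was listed at 41.5, 39.9 and 36.0 FPKM in FGSC and 46.1, 47.2 and 48.2 in Dif-FGSC. The groups did not overlap, and the log2 difference was 0.27 ± 0.052. Sos1, the exchange factor that loads Ras with GTP, was listed at 6.57, 6.24 and 6.28 FPKM in FGSC and 8.46, 8.45 and 8.27 in Dif-FGSC, all above the FGSC libraries (0.35 ± 0.037). Gab2, the scaffold for Ptpn11 and PI3-kinase, was listed at 3.77, 3.84 and 4.12 FPKM in FGSC and 4.03, 4.27 and 4.09 in Dif-FGSC. Its groups overlapped, and its log2 difference of 0.06 ± 0.047 turned to -0.03 after quantile normalization.

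Both SH2-domain tyrosine phosphatases of the set were expressed and differed in opposite directions. Ptpn11 (SHP2), which Ras activation by Kit needs, was listed at 11.2, 10.9 and 11.0 FPKM in FGSC and 13.9, 13.9 and 13.0 in Dif-FGSC, with a log2 difference of 0.28 ± 0.039. Ptpn6 (SHP1), a brake on Kit that is concentrated in blood cells, was listed at 60.8, 63.3 and 66.3 FPKM in FGSC and 54.5, 55.5 and 53.5 in Dif-FGSC, with a log2 difference of -0.22 ± 0.037. Ptpn6 was the single member lower in Dif-FGSC, without overlap. The ratio of Ptpn6 to Ptpn11 was 5.43, 5.81 and 6.04 in FGSC and 3.92, 3.98 and 4.11 in Dif-FGSC. Both directions were kept under every scaling, pseudocount, filter and left-out library tried. That is a description of the same 6 libraries and adds no support, since the members were chosen with their values known.

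The other brakes were all higher in Dif-FGSC, and Cbl had the largest log2 difference of the members. Cbl, the ubiquitin ligase that sends activated Kit to degradation, was listed at 5.38, 5.96 and 6.28 FPKM in FGSC and 12.9, 12.9 and 12.3 in Dif-FGSC. The lowest Dif-FGSC library was well above the highest FGSC library, with a ratio of means of 2.16 and a log2 difference of 1.00 ± 0.054. Inpp5d (SHIP1), the lipid phosphatase that removes the product of PI3-kinase, was listed at 11.0, 11.0 and 11.6 FPKM in FGSC and 17.8, 17.5 and 17.5 in Dif-FGSC, a ratio of 1.57 and a log2 difference of 0.61 ± 0.034. Within each group its 3 libraries were close together. Sh2b3 (LNK), an adaptor that restrains Kit and JAK2 signalling in blood progenitors, was listed at 5.08, 4.50 and 5.09 FPKM in FGSC and 6.17, 6.18 and 6.49 in Dif-FGSC (0.31 ± 0.052).

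**Figure D2:**
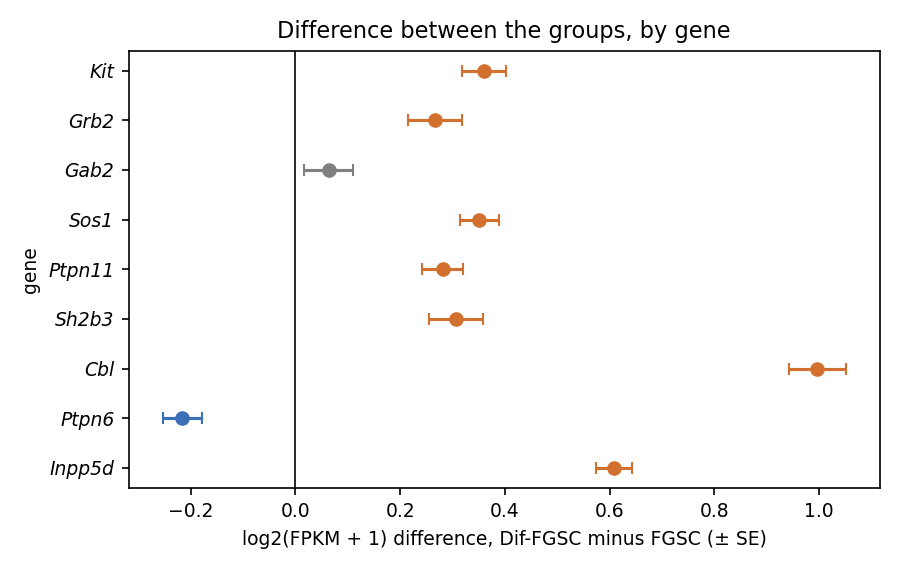
Log2(FPKM + 1) difference between groups, Dif-FGSC minus FGSC, for 9 members, with the SE of the limma fit (3 libraries a group). Orange marks genes called higher, blue lower and grey not called, and Cbl at 1.00 and Inpp5d at 0.61 lie farthest right.

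Relative to Kit in the same library, the brakes went different ways. The ratio of Cbl to Kit was 0.0631, 0.0688 and 0.0662 in FGSC and 0.112, 0.113 and 0.108 in Dif-FGSC, 1.68 times higher by means. The ratio of Inpp5d to Kit was 1.22 times higher, and that of Ptpn6 to Kit was 0.714 ± 0.0160 in FGSC and 0.476 ± 0.00897 in Dif-FGSC, both without overlap. The ratio of Sh2b3 to Kit overlapped between groups, at 0.0550 ± 0.00400 and 0.0549 ± 0.00192, as did that of Grb2 to Kit, at 0.442 ± 0.0557 and 0.413 ± 0.0125. No difference from the factor of Kit was seen for Sh2b3 or Grb2 beyond the spread of 3 libraries. These ratios use listed values, so their size depends on the transcript number and their change between groups does not.

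**Figure D3:**
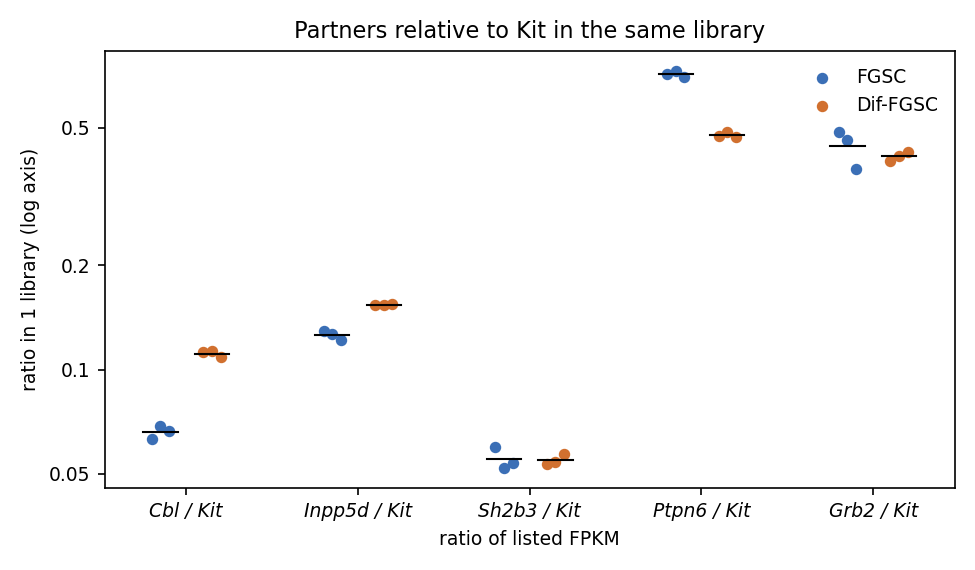
Ratio of the listed FPKM of 5 partners to that of Kit in the same library (log axis), 1 point per library and a line at the group mean. Cbl and Inpp5d sit higher against Kit in Dif-FGSC, Ptpn6 sits lower, and Sh2b3 and Grb2 overlap.

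The nearest relatives of the members, chosen after their values were seen, were compared in the same fit. Cblb, the second Cbl ligase, also rose, from 3.55 ± 0.267 FPKM in FGSC to 5.78 ± 0.0615 in Dif-FGSC (log2 difference 0.58 ± 0.052, limma adjusted p = 5.26e-05). Sos2 rose from 7.75 ± 0.369 to 9.70 ± 0.348 FPKM (0.29 ± 0.046, limma adjusted p = 0.000937). Inppl1, the relative of Inpp5d that is not limited to blood cells, rose from 8.84 ± 0.657 to 11.7 ± 0.474 FPKM (0.37 ± 0.056, limma adjusted p = 0.000818). Of the Sh2b3 relatives, Sh2b1 rose (0.28 ± 0.048, limma adjusted p = 0.00124) and Sh2b2 was not called (0.11 ± 0.084, limma adjusted p = 0.27), except without FGSC replicate 1 (limma adjusted p = 0.0479). Gab1, the relative of Gab2, was listed at 0 in 5 libraries and at no more than 0.00377 FPKM in the other. Grap, a Grb2 relative of lymphoid cells, was below the filter at 0.713 ± 0.0656 FPKM in FGSC and 0.152 ± 0.0116 in Dif-FGSC and was not tested. Grap2, also a Grb2 relative, was higher without overlap (1.03 ± 0.106 to 1.23 ± 0.0792 FPKM) but was not called (limma adjusted p = 0.0911). Cblc, a relative of Cbl and Cblb, was below the filter and lower without overlap (0.300 ± 0.0623 to 0.160 ± 0.0390 FPKM).

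The remaining pathway genes came from 7 lists of 108 symbols, of which 107 were in the table and 90 were tested. Of these 90, 52 rose in Dif-FGSC (57.8%), 10 fell (11.1%) and 28 were not called, against 36.5% and 28.6% of all genes tested. Their median log2 difference was 0.20, and that of all genes was 0.03. After quantile normalization 45 of the 90 rose (50%) and 18 fell (20%), while of all 9162 genes 30.5% rose and 34.7% fell. The lists were drawn up with earlier results of these data known, and no test of the lists as sets was made. Counts of single lists below stand against 36.5% higher and 28.6% lower over all genes, and nothing is read from them.

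Among kinases at the receptor, 4 of 8 tested rose and 1 fell. Csk, which restrains the Src family, rose from 60.7 ± 1.42 to 76.1 ± 1.83 FPKM (0.32 ± 0.031, limma adjusted p = 7.81e-05). Lyn, the Src-family kinase that Kit uses in blood cells, rose from 12.3 ± 0.615 to 15.3 ± 0.473 FPKM (0.29 ± 0.044, limma adjusted p = 0.000811). Jak2 rose by 1.18 times, and its call was lost after quantile normalization (limma adjusted p = 0.0746, range over alternatives 0.00159 to 0.0746). The gene called lower was Fer, from 3.29 ± 0.00846 to 2.96 ± 0.107 FPKM (limma adjusted p = 0.0442), and its call was lost when any one library other than Dif-FGSC replicate 3 was left out (0.0647 to 0.138) and with the replicate block (0.0851). Among adaptors and exchange factors, 9 of 17 rose and 2 fell. Crkl, an adaptor that links Kit to PI3-kinase and Rapgef1, rose 1.48-fold from 8.93 ± 0.442 FPKM, Dok2 1.45-fold from 19.0 ± 0.140, and Rapgef1, an exchange factor for Rap GTPases, 1.40-fold from 15.8 ± 1.24. The 2 that fell were Lat, a membrane scaffold of T cells and mast cells, from 164 ± 5.49 to 121 ± 3.60 FPKM (limma adjusted p = 2.85e-05), and Nck1, from 6.13 ± 0.381 to 4.66 ± 0.186.

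The PI3-kinase and phospholipase C list had 15 of 21 tested genes higher and 1 lower. Pik3cg, a catalytic subunit of blood cells, rose from 4.11 ± 0.506 to 6.46 ± 0.105 FPKM, Pik3r2, a regulatory subunit, from 30.1 ± 0.347 to 44.5 ± 1.61, and Gsk3b, a kinase that AKT inhibits, from 3.25 ± 0.0689 to 5.21 ± 0.0660. The log2 differences of these genes were 0.55 ± 0.069, 0.55 ± 0.034 and 0.55 ± 0.039. The gene that fell was Pik3cd, the main catalytic subunit of leukocytes, from 41.2 ± 0.963 to 35.0 ± 0.573 FPKM (-0.23 ± 0.031, limma adjusted p = 0.000427). In the Ras-ERK cascade 5 of 13 rose, 1 fell and 7 were not called. Braf rose from 2.95 ± 0.245 to 4.63 ± 0.0919 FPKM and Map2k2 rose 1.44-fold from 7.46 ± 0.551, while Mapk3 (ERK1) fell from 35.5 ± 1.87 to 28.5 ± 0.827 (-0.30 ± 0.044, limma adjusted p = 0.000638). Hras and Nras, GTPases that Sos1 loads, were not called, with log2 differences of 0.01 and 0.08, although Nras was called without FGSC replicate 1 (0.11, limma adjusted p = 0.0151).

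Of the 4 STAT factors, 2 rose, 1 fell and 1 was not called. Stat3 rose from 5.17 ± 0.225 FPKM to 8.65 ± 0.306 (0.64 ± 0.045, limma adjusted p = 1.52e-05) while Stat5b fell from 17.8 ± 0.335 to 14.2 ± 0.399 (-0.31 ± 0.035, limma adjusted p = 0.000165). Stat5a, singled out after its values were seen, was listed at 0, 3.98 and 4.59 FPKM in FGSC and 26.0 to 27.2 in Dif-FGSC. Its log2 difference was 3.18 ± 0.588 in the fit and 2.38 ± 0.058 without FGSC replicate 1, the library listed at 0, where the 0 can be a failed estimate. Among the other brakes, 9 of 16 rose and 3 fell. Besides Cblb, Socs1, an inhibitor of JAK signalling that also binds Kit, rose from 24.7 ± 2.52 to 35.6 ± 2.70 FPKM (0.51 ± 0.079, limma adjusted p = 0.000831). The genes that fell were Ptpn2, a JAK and STAT phosphatase, from 22.8 ± 0.808 to 15.9 ± 0.542 FPKM, and the Ras GTPase activators Rasa1 (18.1 ± 0.622 to 15.2 ± 0.160) and Rasa2 (7.33 ± 0.362 to 5.42 ± 0.0722).

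**Figure D4:**
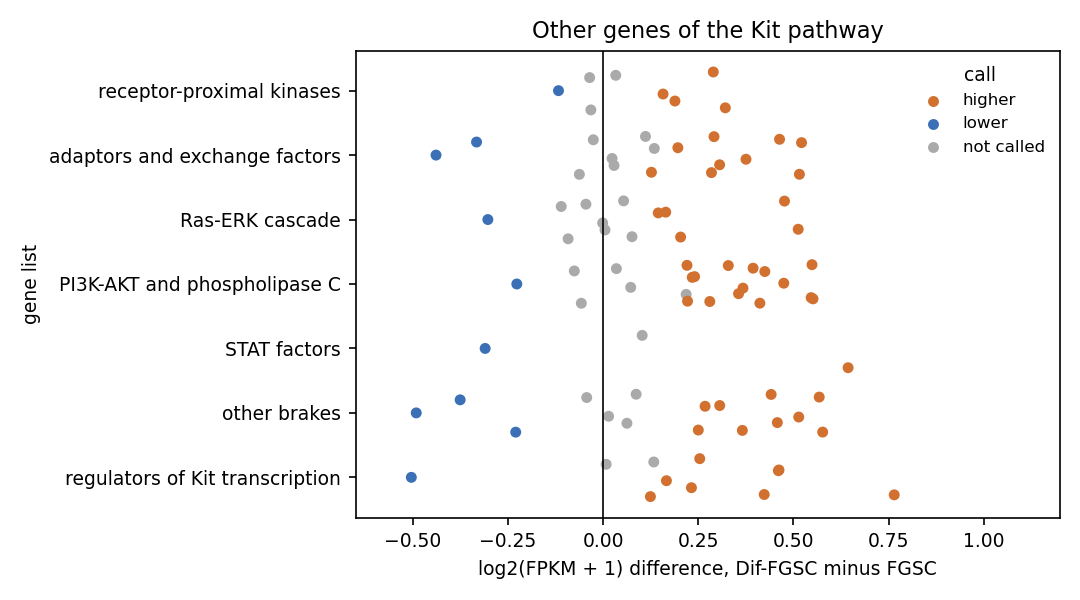
Log2(FPKM + 1) differences, Dif-FGSC minus FGSC, of tested genes in 7 lists of the Kit pathway, 1 point per gene, coloured by call. Stat5a (3.18) is beyond the axis and left out. Marked higher are 15 of the 21 PI3-kinase and phospholipase C genes, against 36.5% of all genes tested.

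Of 11 tested transcription factors known to act on Kit, 8 rose, 1 fell and 2 were not called, against 36.5% higher and 28.6% lower over all genes. Gata1, the erythroid and mast cell GATA factor, rose from 1.77 ± 0.166 to 3.71 ± 0.0482 FPKM (0.77 ± 0.055, limma adjusted p = 1.81e-05). Tal1, which works with GATA factors at the Kit locus in progenitors, rose from 9.07 ± 0.0802 to 12.9 ± 0.413 FPKM (0.46 ± 0.036, limma adjusted p = 2.67e-05). Lmo2, the bridging protein of the same complex, fell from 3.59 ± 0.223 to 2.24 ± 0.182 FPKM (-0.50 ± 0.061, limma adjusted p = 0.00024). Gata2 was the most abundant of the list, at 185 ± 1.57 and 248 ± 6.98 FPKM.

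Among receptors related to Kit in structure, Flt3, Csf1r, Pdgfra and Pdgfrb were below the filter, and the highest value of any of them was 0.0913 FPKM. Of the receptors that work with Kit in blood cells, Csf2rb, the shared chain of the IL-3, IL-5 and GM-CSF receptors, rose from 93.0 ± 4.27 to 116 ± 1.69 FPKM (0.31 ± 0.037, limma adjusted p = 0.000202). Csf2rb2 rose from 52.9 ± 2.99 to 63.2 ± 0.351 FPKM, and Il1rl1, the IL-33 receptor of mast cells, from 9.73 ± 0.763 to 16.4 ± 0.188 (0.70 ± 0.053, limma adjusted p = 2.43e-05). Epor, the erythropoietin receptor, was not called (12.4 ± 1.05 and 12.2 ± 0.831 FPKM), and neither was Il3ra (2.14 ± 0.340 and 2.50 ± 0.159), except without FGSC replicate 3 (limma adjusted p = 0.0442).

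The genes whose pattern was most like that of Kit were found by the root mean square difference between log2(FPKM + 1) values, each gene centred on its own mean over the 6 libraries. Among 8835 genes compared, the 8 closest were Ctnna1 (0.0109), Slc18a2 (0.0137), Usp24 (0.0140), Sec31a (0.0145), Zswim8 (0.0146), Smarcc2 (0.0158), Ralgapa2 (0.0172) and Kdm4a (0.0181). The median distance was 0.195, and 228 genes lay within 0.05 of Kit, so a close match was common. Ctnna1, an alpha catenin, was listed at 18.2, 18.3 and 20.2 FPKM in FGSC and 24.8, 24.2 and 24.0 in Dif-FGSC. Slc18a2, the vesicle transporter that loads serotonin and histamine, was listed at 30.2, 30.5 and 33.9 FPKM and 41.7, 39.9 and 40.1. Like Kit, both had FGSC replicate 3 nearest to the Dif-FGSC libraries. The likeness rests on 6 libraries that share the group difference and their depths.

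**Figure D5:**
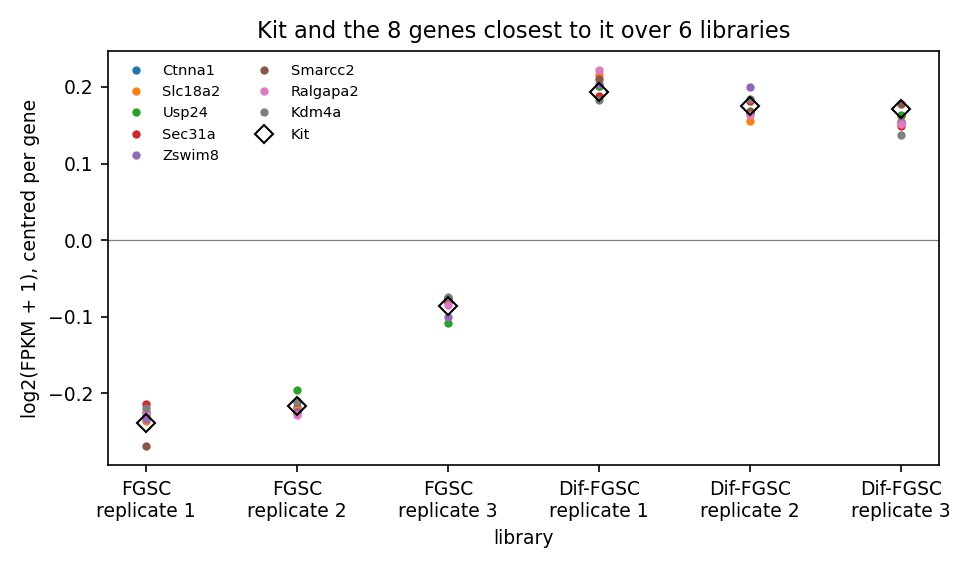
Log2(FPKM + 1), centred on the mean of each gene, in 6 libraries for Kit (open diamonds) and the 8 genes closest to it (points). All 9 genes lie below 0 in FGSC and above 0 in Dif-FGSC, and FGSC replicate 3 lies nearest to 0.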

How the data were processed

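Poly(A) RNA libraries (KAPA stranded mRNA kit, Trizol RNA, per the labels' protocols) were deposited by the authors as a table of FPKM values per gene symbol and library. HISAT2 4.8.2, Cufflinks 2.2.1 and the build mm9 are named in the submitters' processing notes without roles; for annotation and strand setting nothing is stated in the sources used here. Of 24674 rows, 2 repeated symbols were reduced to the row with the higher mean and 1 stray value beyond the library columns was dropped; 24564 symbols matched the reference names. Genes with a mean of at least 1 FPKM were tested with limma 3.58.1 (lmFit, eBayes with trend, R 4.3.3) on log2(FPKM + 1), with Benjamini-Hochberg adjusted p under 0.05 as the call. With 3 libraries against 3, an exact test of a single gene cannot go below 0.1. Per library, 74.2% to 76.9% of low values lay within 0.1 of a whole fragment at the depth given, which was set from the same values. Fragment floors cover counting error only. The members and lists were chosen with earlier results of these data known. Named were all members, the 3 called genes of each list with the largest log2 differences and values above 0 in every library, every tested related receptor and the 8 genes closest to Kit. Named outside this rule, after their values were seen, were Fer, Lat, Nck1, Pik3cd, Ptpn2, Rasa1, Rasa2, Hras, Nras, Stat5a, Gata2, the cell type markers and the relatives of the members. A gene that the rule picks is not reported here. RefSeq promoters matched 9 of 10 members. The limma script was tested on simulated data. Alternatives covered pseudocount, filter, scaling, trend, replicate block, left-out libraries and, added after the data were seen, values multiplied by transcript number.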

Additional observations from a re-analysis of the deposited data

How the results depend on the processing

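The members were chosen with their values known, so their ranges over the alternatives are a description and support nothing. The log2 difference of Kit ranged from 0.33 (median-ratio scaling) to 0.41 (without FGSC replicate 3), that of Cbl from 0.91 to 1.10, that of Inpp5d from 0.52 to 0.65 and that of Ptpn6 from -0.25 to -0.18. Gab2, which was not called, ranged from -0.03 to 0.09. Over members and other named genes above the filter, 741 of 753 values kept their call. Members gave 134 of the 753, and all 134 kept it. The other genes came from lists drawn up with earlier results known or were named after their values were seen. This count is therefore a description too and supports nothing. Adgre1, Cd68, Grap2 and the 8 genes closest to Kit were not counted here. Of the 753 values, 8 lost their call (7 of Fer and 1 of Jak2) and 4 gained one (Il3ra, Nras, Sh2b2 and Cpa3), each given beside its gene. Fer also missed the threshold without a filter on low values (limma adjusted p = 0.0597). The count of other pathway genes that fell went from 10 to 18 after quantile normalization; under that scaling all genes moved the same way (2622 to 3182 lower, 3343 to 2793 higher, median log2 difference 0.03 to -0.02), and the cause was not tested. Leaving out 1 library at a time gave 49 to 54 risers, 9 or 10 fallers and 5295 to 5963 calls over all genes. Deviations of same-numbered libraries correlated at 0.131, 0.0123 and 0.173 over 9162 genes, and those of other pairs at -0.218 to 0.106. FGSC replicate 2 correlated better with Dif-FGSC replicate 1 (0.106) than with its own number. With 3 libraries a group, these correlations cannot settle whether the replicate numbers pair the libraries. With the replicate block, 5798 genes were called over the whole table against 5965 without it, and 53 pathway genes rose and 9 fell. At 17.4 to 27.0 M fragments, depth limits what can be said of Kitl and Gab1.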
